A study of Mus musculus with 8 samples.

Results

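Hmgcs1, Mvd, Idi1, Fdps, Fdft1, Sqle, Lss and Cyp51 encode enzymes of cholesterol synthesis. They were taken by symbol from a table of RNA-seq read counts, 8 of its 55414 genes, and all 8 were among the 24356 genes that passed the filter on low counts. The libraries came from mice of a supratentorial ependymoma model, a brain tumor of the cerebral hemispheres driven by a fusion of Zfta with Rela, which encodes an NF-kB subunit. Mice whose tumor had been seen by MRI were randomised to vehicle or to MRX-2843, a kinase inhibitor whose targets include MERTK and FLT3, and were killed 1 h after the last dose. The 4 groups held 2 libraries each. They were naive brain of vehicle-treated mice, tumor of vehicle-treated mice, naive brain of mice given 50 mg/kg MRX-2843 by mouth once a day for 5 days, and tumor of mice given the same course. The labels give all 8 libraries the genotype ZFTA-RELA fusion, naive brain included, and give no strain, age or sex. Whether the naive brain was that of tumor-bearing mice is not stated. Libraries of a group are named as duplicates in the columns, whose names open with a number: 1 number for all 4 MRX-2843 libraries, another for 3 vehicle libraries and yet another for vehicle naive library 2. Its meaning is not given. Nothing says that duplicates are separate mice, and p-values then measure only the spread between these libraries, which may be technical.

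Cholesterol is made in the cell from acetyl-CoA by way of mevalonate, isoprenoid units, squalene and lanosterol. The transcription factor SREBP2, encoded by Srebf2, raises most genes of the pathway together when sterols in the endoplasmic reticulum are low. The blood-brain barrier keeps out circulating lipoproteins, so the brain makes its own cholesterol. Oligodendrocytes need it for myelin, and astrocytes export it to neurons on apolipoprotein E. Dividing cells need it for new membrane.

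Promoter windows from RefSeq (GRCm38.p6), from 250 bases before to 50 bases after the start of transcription, were matched for 5 of the 8 genes: Hmgcs1, Mvd, Idi1, Lss and Cyp51. Fdps, Fdft1 and Sqle had no entry. Of the motifs searched on both strands, the sterol regulatory element TCACNCCAC, bound by SREBP, stood in 1 of the 5 windows and in 1.24% of all 32851 windows of that length. The CCAAT box, bound by NF-Y, a partner of SREBP, stood in 5 of 5 and in 37.4% of all windows. The GC box GGGCGG of Sp1 stood in 5 of 5 and 35.7%, and the E-box CACGTG in 0 of 5 and 7.15%. The stretches below show the letters that carry the SREBP and NF-Y matches, in capitals, upstream of the annotated starts, and no match overlaps another. The Hmgcs1 stretch lies at chr13:119690102-119690322 on the plus strand, the Mvd stretch at chr8:122443433-122443494 on the minus strand and the Lss stretch at chr10:76531531-76531559 on the plus strand.
Hmgcs1: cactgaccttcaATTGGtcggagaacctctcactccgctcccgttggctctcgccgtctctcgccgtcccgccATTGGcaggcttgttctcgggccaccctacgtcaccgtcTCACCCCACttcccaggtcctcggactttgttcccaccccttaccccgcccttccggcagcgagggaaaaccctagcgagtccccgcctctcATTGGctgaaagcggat
Mvd: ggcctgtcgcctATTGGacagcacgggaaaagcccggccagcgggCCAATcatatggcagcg
Lss: ggtgatgctctgATTGGccgagctcgcat
In Hmgcs1 the sterol element begins 137 bases before the start, between CCAAT boxes on the reverse strand at 176 and 45 bases before it. A match describes letters and shows no binding. Each motif was searched only in the form given, with no mismatch allowed, so a window without a match may still hold a variant form.

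Library totals ran from 51150569 to 112938462 counts. Levels are CPM, counts scaled by library totals that were adjusted by TMM, a trimmed mean of log ratios. Fold changes are log2 values ± SE, and adjusted p-values come from edgeR's quasi-likelihood test over all 24356 genes that passed the filter, with a gene called changed under 0.05. Cell type markers differed widely between the groups. Markers of mural cells and fibroblasts, 8 in sum, were at 8615 and 8716 CPM in vehicle tumor and at 157 to 178 in the other 6 libraries. Endothelial markers, also 8, were at 628 and 619 CPM in vehicle tumor and at 173 to 189 in the other 6 libraries. Summed over 10 neuron markers, vehicle tumor stood at 515 and 524 CPM and vehicle naive brain at 7019 and 6862. Summed over 10 oligodendrocyte markers, the values were 543 and 564 CPM in vehicle tumor, 7631 to 7779 in the 4 naive libraries, and 14598 and 15052 in MRX-2843 tumor. Microglia and macrophage markers reached 1748 and 1776 CPM in vehicle tumor and 218 to 292 in the other 6 libraries, and no marker of any list was at 0 in any library. Summed neuron markers were at 4107 and 4068 CPM in MRX-2843 tumor, and at 3955 and 4062 CPM in MRX-2843 naive brain, while single neuron markers lay apart between these groups, 1 of 10 higher and 5 lower in tumor. Across 12636 genes with a mean log2 CPM of 2 or more, Pearson's r of log2 CPM with the naive brain libraries was 0.467 to 0.4745 for vehicle tumor and 0.955 to 0.964 for the libraries labelled MRX-2843 tumor. Between both tumor groups it was 0.487 to 0.492, so the vehicle tumor pair stood apart from the other 6 libraries. Without both MRX-2843 tumor libraries, 3 of the 8 enzyme genes were called higher and 3 lower for tumor under vehicle, and 0 higher and 3 lower for MRX-2843 in naive brain, as with them. In these bulk samples, fewer cells of a type and less RNA per cell cannot be told apart. Treatment coincided with sex-linked RNA: Xist, which acts in X-chromosome silencing, ran from 526 to 795 CPM with MRX-2843 and from 0.408 to 2.88 CPM with vehicle. The Y-linked Ddx3y had a mean of 33.2 CPM in vehicle naive brain, 73.3 in vehicle tumor and 0 in both MRX-2843 groups. Treatment cannot be told apart from sex-linked RNA or from the number in the column names in any comparison between treatments, and no member lies on a sex chromosome. The part of these marker differences in the results below was not tested.

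Summed over the 8 genes, the level was 447 and 438 CPM in vehicle naive brain and 389 and 387 CPM in vehicle tumor. With MRX-2843 the sum was 359 and 369 CPM in naive brain and 442 and 428 CPM in tumor. Both vehicle tumor libraries lay below vehicle naive brain and above MRX-2843 naive brain in this sum. As a share of all counts without scaling the sum was 0.0444 and 0.0437% in vehicle tumor and 0.0424 and 0.0419% in vehicle naive brain, so which of these was the higher turned with the scaling.

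**Figure D1:**
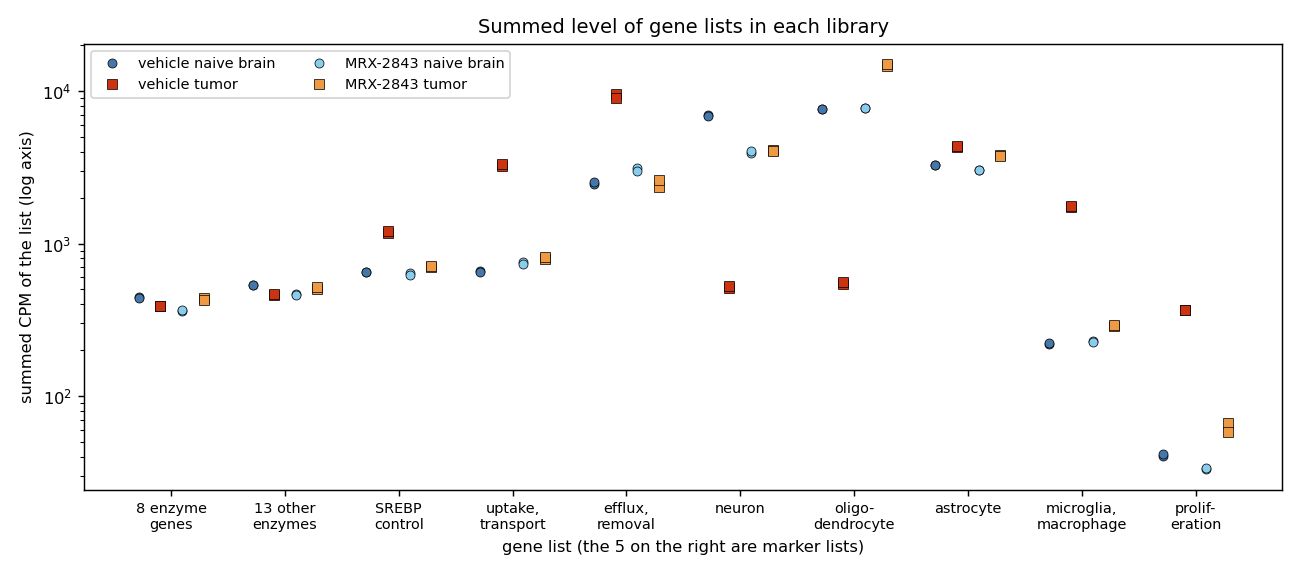
Summed CPM (log axis) of the 8 enzyme genes and of 9 other gene lists, 1 point per library, coloured by group. The 8 genes sit between 359 and 447 CPM in all libraries, while the neuron sums of vehicle tumor, 515 and 524 CPM, lie below all other libraries.

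Levels of different genes were compared per kilobase of annotated exon. The length is that of all annotated exons of a gene merged, 10.787 kb for Lss and 1.859 to 5.546 kb for the other members. Without this division Lss was above Mvd in vehicle naive brain, at 31.5 against 25.1 CPM, so the order depends on these lengths. In vehicle naive brain Hmgcs1, the synthase that makes HMG-CoA, was highest at 35.8 ± 0.341 CPM per kb (SD, n = 2), followed by the squalene synthase gene Fdft1 at 19.7 ± 0.206 and the mevalonate diphosphate decarboxylase gene Mvd at 13.5 ± 0.640. Cyp51, the lanosterol demethylase, stood at 11.5 ± 0.708 and Idi1, the isopentenyl diphosphate isomerase, at 11.5 ± 1.84, closer than their spread. Sqle, the squalene epoxidase, was at 8.30 ± 0.448 and Lss, the lanosterol synthase, at 2.92 ± 0.108. In vehicle tumor the order below Hmgcs1 (22.1 ± 0.454) was another one: Cyp51 came next at 17.9 ± 0.944, then Idi1 at 14.1 ± 0.587, Fdft1 at 12.9 ± 1.28, Mvd at 11.2 ± 1.12, Sqle at 10.2 ± 0.194 and Lss at 2.24 ± 0.0772. From Idi1 to Sqle, the mean ± SD ranges of neighbours in that order overlapped. In MRX-2843 tumor Hmgcs1 (31.5 ± 1.32) and Fdft1 (17.6 ± 0.713) were again the highest pair, as in both naive groups. MRX-2843 tumor also held the highest Lss, 4.31 ± 0.0594 CPM per kb.

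Fdps, which encodes farnesyl diphosphate synthase, was an exception in level. It had 69 to 131 counts per library, 0.257 ± 0.112 to 0.429 ± 0.125 CPM per kb over the groups. In GENCODE M21, 26.7% of its exonic bases (1124 bases) are shared on the same strand with the protein-coding Gm43738, which was listed at 0 counts in all 8 libraries. The annotation behind the counts and the treatment of reads shared by genes are not given in the sources used here, so the level and fold changes of Fdps are uncertain, and it was called in none of the comparisons. On GRCm38 the genes lie apart from each other, Hmgcs1 at chr13:119690379-119708260, Mvd at chr8:122433601-122443422, Idi1 at chr13:8885501-8892451 and Fdps at chr3:89093588-89101959. Fdft1 lies at chr14:63145150-63179578, Sqle at chr15:59315077-59331192, Lss at chr10:76531588-76557138 and Cyp51 at chr5:4081145-4104746. Fdft1 shares 18.3% of its exonic bases with Ctsb on the opposite strand, Hmgcs1 12.1% with the antisense Gm48342, Idi1 9.2% with Gm48574, Cyp51 3.8% with Akap9 and Lss 3.5% with 4930483K19Rik. The strand setting of the counting is not stated, so these genes and their partners may share reads. Ctsb, the cathepsin B gene, had a mean of 422 CPM in vehicle naive brain, 1436 in vehicle tumor, 442 in MRX-2843 naive brain and 362 in MRX-2843 tumor, and its part in the Fdft1 values was not tested.

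**Figure D2:**
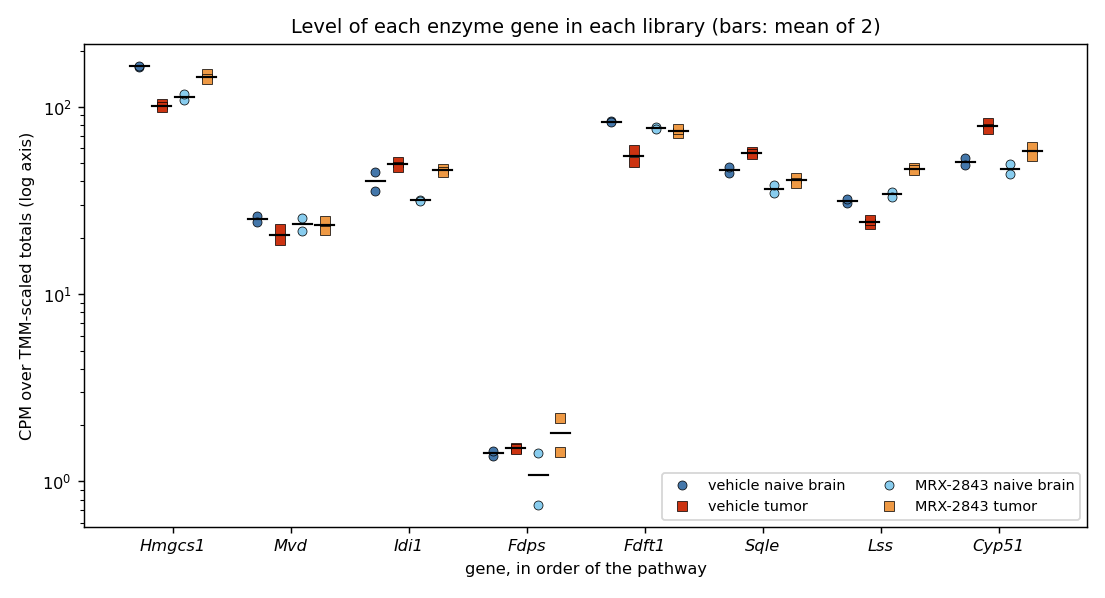
CPM over TMM-scaled totals (log axis) of the 8 genes in pathway order, 1 point per library and a bar at the mean of the 2 libraries of a group. Cyp51 and Sqle are highest in vehicle tumor, Hmgcs1, Fdft1 and Lss are lowest there, and Fdps runs from 0.750 to 2.18 CPM.

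Vehicle tumor against vehicle naive brain asks how the pathway differed between tumor and brain. The genes moved in both directions: Cyp51, Idi1 and Sqle were higher in tumor and Hmgcs1, Fdft1 and Lss lower, each by less than 1 log2 unit. Of all genes tested, 60.1% changed in this comparison, 29.3% higher and 30.8% lower, against 3 and 3 of the 8, so the share of genes called was near the background. The median of the 8 was -0.09, beside -0.03 over all genes tested. In the same comparison the median was -5.07 for the neuron markers and -3.65 for the oligodendrocyte markers.

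Among the early steps, Hmgcs1 was at 163 and 165 CPM in the vehicle naive libraries and at 103 and 100.03 in vehicle tumor. The tumor libraries were the lower, with a log2 fold change of -0.70 ± 0.06 (adjusted p = 8.67e-08). Idi1, which makes the activated isoprenoid unit dimethylallyl diphosphate, was at 44.7 and 35.6 CPM in naive brain and 50.9 and 48.0 in tumor, a rise of 0.30 ± 0.10 (adjusted p = 0.0175). The naive libraries of Idi1 lay further apart from each other than the tumor libraries did. Mvd was at 26.0 and 24.3 CPM in naive brain and 19.3 and 22.3 in tumor (-0.27 ± 0.12, adjusted p = 0.0638). It was called lower, as the fourth of the 8, with the stricter filter (-0.28, adjusted p = 0.0426) and without vehicle tumor library 2 (-0.38, adjusted p = 0.0338).

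From squalene on, neighbouring steps went opposite ways. Fdft1, which joins farnesyl units to squalene, was at 83.8 and 82.6 CPM in naive brain and 50.9 and 58.6 in tumor (-0.60 ± 0.07, adjusted p = 4.52e-06). Sqle, which adds the first oxygen and is a second control point of the pathway, was at 44.3 and 47.8 CPM in naive brain and 57.4 and 55.9 in tumor (0.30 ± 0.08, adjusted p = 0.00525). Lss, which closes the sterol rings, was at 30.7 and 32.4 CPM in naive brain and 23.6 and 24.8 in tumor (-0.38 ± 0.09, adjusted p = 0.00145). Cyp51, which removes the first methyl group of lanosterol, was at 53.2 and 48.7 CPM in naive brain and 82.1 and 76.2 in tumor. Its rise of 0.64 ± 0.09 (adjusted p = 1.23e-05) was the largest of the 8. The libraries of both groups did not overlap for any of these 4 genes. The share of all genes without overlap was not counted in this or any other comparison, so overlap is given only as a description.

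Of the 6 calls, 3 were lost under at least 1 alternative. Idi1 was no longer called without vehicle naive library 2 (0.15, adjusted p = 0.281), which leaves only libraries of 1 column number in these groups, or vehicle tumor library 1 (adjusted p = 0.0664), Sqle without vehicle naive library 1 (adjusted p = 0.0679), and Lss with library totals in place of TMM (-0.13, adjusted p = 0.219), which moved the median of all genes by 0.25.

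MRX-2843 tumor against vehicle tumor asks how tumors differed after the course of inhibitor, and compares libraries that, as above, resembled naive brain with the pair that stood apart. Hmgcs1, Fdft1 and Lss were higher and Sqle and Cyp51 lower in MRX-2843 tumor, 3 and 2 of the 8. Over all genes 30.6% were higher and 29.8% lower, 60.4% in all, so the share called was again near the background. This comparison and the previous one share the vehicle tumor libraries. Between the same groups the summed oligodendrocyte markers differed from 543 and 564 to 14598 and 15052 CPM, and the share of counts from mitochondrially encoded genes from 3.26 and 3.37% to 17.3 and 16.4%.

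Lss showed the largest difference: its 2 MRX-2843 tumor libraries were at 47.0 and 46.1 CPM, above all 6 others, which ran from 23.6 to 35.1. Against vehicle tumor this was 0.94 ± 0.09 (adjusted p = 1.94e-07). Hmgcs1 was at 149 and 141 CPM in MRX-2843 tumor (0.51 ± 0.06, adjusted p = 2.76e-06) and Fdft1 at 72.3 and 76.6 (0.44 ± 0.07, adjusted p = 0.000107). Sqle was at 41.8 and 39.4 CPM, which was -0.48 ± 0.08 (adjusted p = 0.000125), and Cyp51 at 61.0 and 54.8, which was -0.45 ± 0.09 (adjusted p = 0.000327). Idi1, at 46.6 and 45.0 CPM, lay close to vehicle tumor (-0.11 ± 0.10, adjusted p = 0.361), as did Mvd at 22.0 and 24.5 (0.16 ± 0.12, adjusted p = 0.266). Only Mvd and Fdps had libraries that overlapped between these groups. With library totals, which moved the median of all genes by -0.22, Idi1 was called lower (-0.33, adjusted p = 0.00884) and the value of Mvd changed sign (-0.06).

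**Figure D3:**
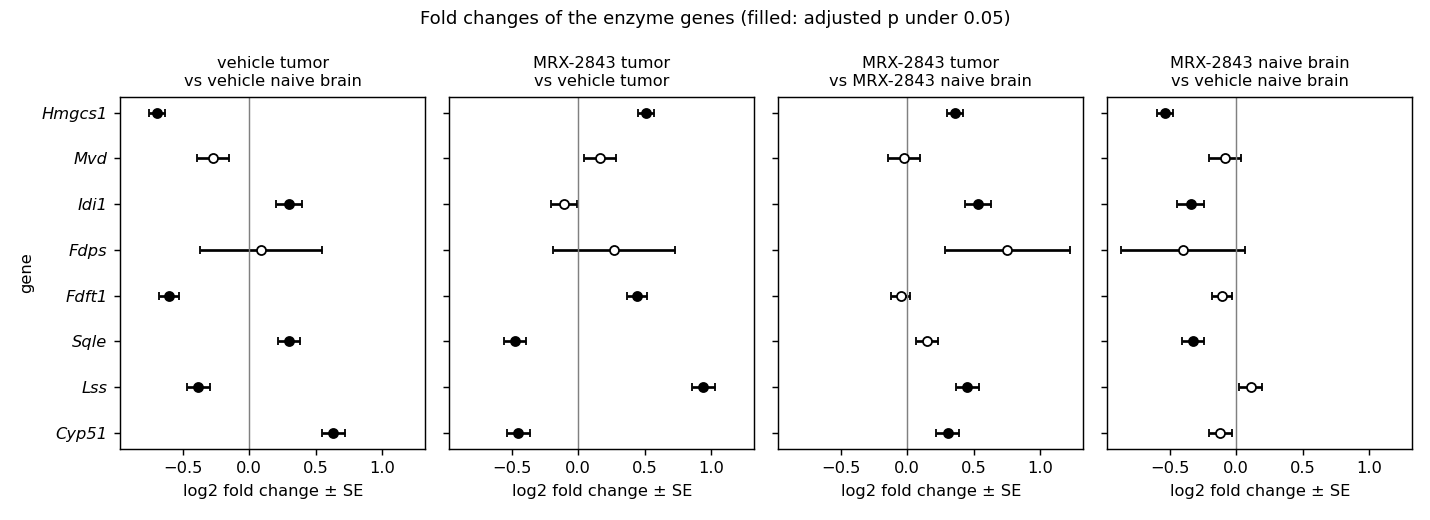
Log2 fold change ± SE of the 8 genes in 4 comparisons, each from 2 libraries per group, with filled points at an adjusted p under 0.05. Within the first 2 panels, which share the vehicle tumor libraries, the genes lie on both sides of 0; in the third all called genes lie to the right and in the fourth all called genes lie to the left.

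Tumor against naive brain within MRX-2843 showed another pattern. Hmgcs1, Idi1, Lss and Cyp51 were higher in tumor and none was lower, 4 and 0 of the 8, beside 12.4% of all genes higher and 11.9% lower (24.4% in all), a larger share higher than over all genes. The median of the 8 was 0.33. Hmgcs1 went from 109 and 117 CPM to 149 and 141 (0.36 ± 0.06, adjusted p = 0.000468) and Idi1 from 32.0 and 31.3 to 46.6 and 45.0 (0.53 ± 0.10, adjusted p = 0.00118). Lss went from 35.1 and 33.0 CPM to 47.0 and 46.1 (0.45 ± 0.09, adjusted p = 0.00136). Cyp51 went from 43.8 and 49.8 CPM to 61.0 and 54.8 (0.30 ± 0.09, adjusted p = 0.0192), a call lost without MRX-2843 naive library 1 (adjusted p = 0.154) or MRX-2843 tumor library 1 (adjusted p = 0.162). Fdft1 (-0.05 ± 0.07), Mvd (-0.03 ± 0.12) and Sqle (0.15 ± 0.08) were not called. Of the 8 only Mvd had overlapping libraries, so the uncalled Fdft1, Sqle and Fdps did not overlap either. All 10 oligodendrocyte markers were higher in the same comparison (median 1.05), with the myelin gene Mobp at 0.93 ± 0.04. All 8 proliferation markers were higher as well, and their summed level was 66.1 and 58.4 CPM against 33.0 and 33.6. Under vehicle all 8 of these markers were also higher in tumor, at 366 and 366 CPM against 40.5 and 41.8. There 3 of the enzyme genes were higher and 3 lower. Of the 10 neuron markers, 1 was higher and 5 lower, with Slc17a7, of excitatory neurons, at 2.40 ± 0.05 (adjusted p = 1.68e-12) and Gad2, of inhibitory neurons, at -1.40 ± 0.07 (adjusted p = 4.31e-09). Of the 10 microglia and macrophage markers 5 were higher and none lower, with Cx3cr1 at 0.48 ± 0.06 (adjusted p = 4.22e-05).

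MRX-2843 against vehicle in naive brain asks whether brain labelled naive differed after the drug. It shares the MRX-2843 naive libraries with the previous comparison, with opposite sign, so low values in these libraries enter both. Hmgcs1, Idi1 and Sqle were lower with MRX-2843 and none was higher, 3 and 0 of the 8, beside 11.7% of all genes lower and 9.78% higher (21.5% in all), a larger share lower than over all genes. Hmgcs1 went from 163 and 165 CPM to 109 and 117 (-0.54 ± 0.06, adjusted p = 1.13e-05). Idi1 went from 44.7 and 35.6 CPM to 32.0 and 31.3 (-0.34 ± 0.10, adjusted p = 0.0242), and Sqle from 44.3 and 47.8 to 34.9 and 38.3 (-0.33 ± 0.08, adjusted p = 0.00961). Fdft1 (-0.11 ± 0.07), Lss (0.11 ± 0.09), Cyp51 (-0.12 ± 0.09) and Mvd (-0.09 ± 0.12) were not called, and the libraries overlapped for Mvd, Fdps and Cyp51. The naive groups also differed in neuron markers, with 3 of 10 higher and 5 lower. Slc17a7, a vesicular glutamate transporter gene of excitatory neurons, was at -3.49 ± 0.05 (adjusted p = 1.81e-14). Gad2, of inhibitory neurons, went the other way, from a mean of 80.5 CPM in vehicle naive brain to 244 CPM in MRX-2843 naive brain. Without MRX-2843 naive library 1 only 1 of the 8 was called lower. Idi1 lost its call without any of MRX-2843 naive library 1 (adjusted p = 0.0522), library 2 (adjusted p = 0.0851) or vehicle naive library 1 (adjusted p = 0.387), and Sqle without MRX-2843 naive library 1 (adjusted p = 0.0859) or vehicle naive library 2 (adjusted p = 0.11).

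The interaction of treatment and tissue tests whether the difference of tumor from naive brain was itself different between the treatments. It was called for 4 of the 8, beside 51.6% of all genes. The difference was higher under MRX-2843 for Hmgcs1, from -0.70 to 0.36 (interaction 1.05 ± 0.09, adjusted p = 5.8e-08), for Lss, from -0.38 to 0.45 (0.83 ± 0.12, adjusted p = 3.89e-05), and for Fdft1, from -0.60 to -0.05 (0.55 ± 0.11, adjusted p = 0.000413). In that direction lay 3 of the 8 and 26.3% of all genes. Cyp51 was the only member called in the other direction, where 25.3% of all genes lay, with 0.64 under vehicle and 0.30 under MRX-2843 (-0.33 ± 0.12, adjusted p = 0.0344). Its call was lost with DESeq2 (adjusted p = 0.0519). It was also lost without MRX-2843 naive library 2 (adjusted p = 0.154), MRX-2843 tumor library 2 (adjusted p = 0.11), vehicle naive library 2 (adjusted p = 0.13) or vehicle tumor library 1 (adjusted p = 0.0887). For Idi1 (0.23 ± 0.14, adjusted p = 0.188) and Sqle (-0.15 ± 0.12, adjusted p = 0.306) a difference between the treatments was not called. Sqle was called with library totals (-0.37, adjusted p = 0.0148) and Idi1 without vehicle naive library 2 (0.39, adjusted p = 0.029).

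Of the 13 other enzymes of the pathway, 3 were higher and 6 lower in vehicle tumor than in vehicle naive brain (median -0.24), beside 29.3% and 30.8% of all genes. Lbr, a lamin receptor with sterol reductase activity, rose by 1.04 ± 0.12 (adjusted p = 2.13e-06) and Ebp, an X-linked sterol isomerase gene, by 1.06 ± 0.14 (adjusted p = 1.21e-05).

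For MRX-2843 in tumor 6 of the 13 were higher and 5 lower, beside 30.6% and 29.8% of all genes. Ebp fell by 1.36 on the log2 scale (adjusted p = 1e-06) and the desaturase gene Sc5d rose by 0.54 ± 0.08 (adjusted p = 2.17e-05). Within MRX-2843, 6 were higher and 1 lower in tumor, beside 12.4% and 11.9% of all genes. Sc5d was at 0.41 ± 0.08 (adjusted p = 0.00122) and the methyl sterol oxidase gene Msmo1 at 0.39 ± 0.08 (adjusted p = 0.00222). In naive brain MRX-2843 libraries had 6 lower and none higher, beside 11.7% lower and 9.78% higher of all genes. Hsd17b7, a sterol ketoreductase gene, was at -0.56 ± 0.13 (adjusted p = 0.0046). This comparison and the one within MRX-2843 share the MRX-2843 naive libraries. Summed over the 13, the level was 536 and 532 CPM in vehicle naive brain and 462 and 470.3 CPM in vehicle tumor. With MRX-2843 it was 469 and 457 CPM in naive brain and 507 and 516 CPM in tumor, so the sum, like that of the 8, was higher in vehicle naive brain and MRX-2843 tumor than in the other pair of groups. Unscaled, as a share of all counts, it was highest in vehicle tumor, at 0.0528 and 0.0531%, against 0.0509 and 0.0509% in vehicle naive brain.

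**Figure D4:**
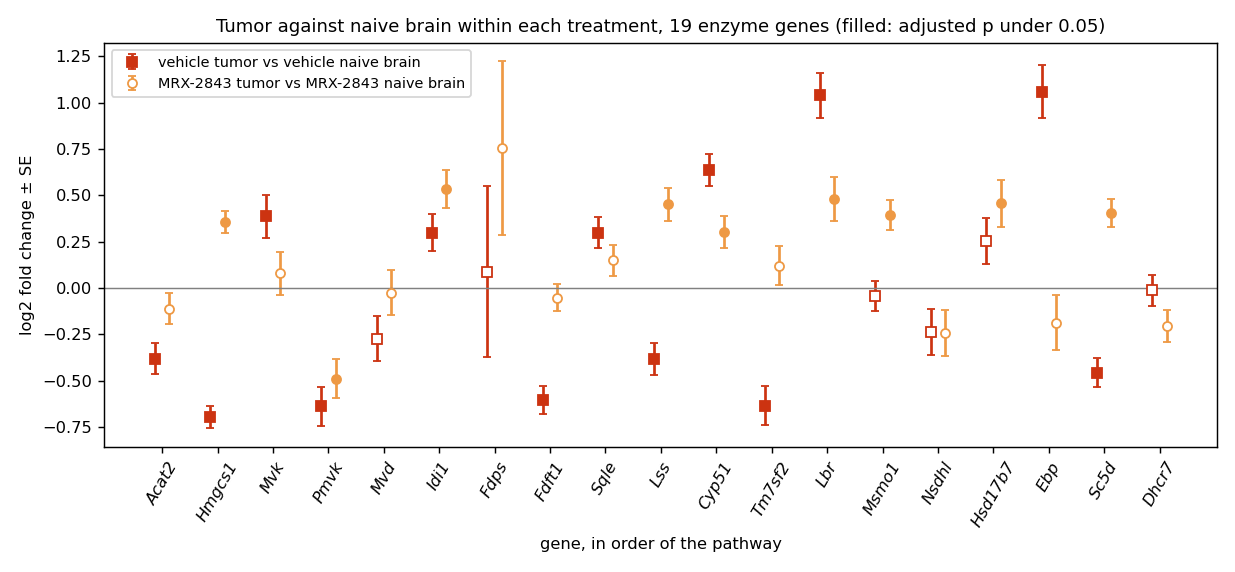
Log2 fold change ± SE of tumor against naive brain for 19 enzyme genes in pathway order, squares for vehicle and circles for MRX-2843, which share no library, with filled points at an adjusted p under 0.05. Under vehicle called genes lie on both sides of 0 along the pathway, while under MRX-2843 Pmvk is the only called gene below 0.

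The branch that uses the isoprenoids for ubiquinone, dolichol and protein prenylation starts from the products of Idi1 and Fdps. In vehicle tumor 2 of its 9 genes were higher and 6 lower than in vehicle naive brain, beside 29.3% and 30.8% of all genes, with the ubiquinone genes Pdss1 at -1.33 ± 0.17 (adjusted p = 6e-06) and Coq2 at -0.52 ± 0.07 (adjusted p = 7.94e-06) and the farnesyltransferase subunit gene Fntb at -0.83 ± 0.11 (adjusted p = 1.38e-05). For MRX-2843 in tumor 4 were higher and 2 lower, beside 30.6% and 29.8% of all genes, with Pdss1 at 1.42 ± 0.17 (adjusted p = 3.25e-06).

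Of 9 SREBP control genes 6 were higher in vehicle tumor than in vehicle naive brain and none lower (median 0.66), beside 29.3% and 30.8% of all genes. For MRX-2843 in tumor 5 were lower and none higher, beside 29.8% lower and 30.6% higher of all genes. Within MRX-2843, 4 were higher and none lower in tumor, beside 12.4% and 11.9% of all genes. In naive brain 2 were higher and 1 lower with MRX-2843, beside 9.78% and 11.7% of all genes. Within MRX-2843, the call of Srebf2 was lost without MRX-2843 naive library 2 (adjusted p = 0.059), and that of Insig1 without MRX-2843 naive library 1 (adjusted p = 0.147) or MRX-2843 tumor library 1 (adjusted p = 0.204). The lower call in naive brain, Srebf2, was lost without MRX-2843 naive library 2 (adjusted p = 0.0509). Srebf2 was at 184 and 187 CPM in vehicle naive brain and 285 and 301 CPM in vehicle tumor. With MRX-2843 it was at 162 and 147 CPM in naive brain and 181 and 188 CPM in tumor. Both vehicle tumor libraries were above the other 6, with 0.66 ± 0.06 against vehicle naive brain (adjusted p = 1.24e-07) and -0.67 ± 0.06 for MRX-2843 in tumor (adjusted p = 1.16e-07). Srebf1, whose product acts mainly on fatty acid genes, rose by 2.44 ± 0.08 (adjusted p = 6.47e-13) and Mbtps1, a protease that releases SREBP, by 1.28 ± 0.06 (adjusted p = 7.01e-11). Insig1, which holds SREBP in the endoplasmic reticulum and is itself raised by it, was at 58.6 and 57.5 CPM in vehicle naive brain and 79.4 and 80.8 CPM in vehicle tumor (0.46 ± 0.09, adjusted p = 0.000321), and in MRX-2843 tumor at 80.0 and 67.8 (-0.12 ± 0.09, adjusted p = 0.27). Leaving out MRX-2843 tumor library 1 gave a lower call of Insig1 there (-0.24, adjusted p = 0.044), as did library totals (-0.34, adjusted p = 0.00311).

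Genes of cholesterol uptake ranged from -3.79 to 2.96 in vehicle tumor against vehicle naive brain and those of efflux and removal from -4.48 to 5.06, while the 8 enzymes ranged from -0.70 to 0.64. Of the 11 uptake and transport genes 7 were higher and 3 lower in vehicle tumor than in vehicle naive brain, beside 29.3% and 30.8% of all genes, with Lrp1 at 2.96 ± 0.05 (adjusted p = 7.67e-16), the lysosomal cholesterol carrier gene Npc2 at 2.67 ± 0.09 (adjusted p = 8.96e-13) and the neuronal receptor gene Lrp8 at -1.80 ± 0.07 (adjusted p = 4.86e-12). For MRX-2843 in tumor 3 were higher and 5 lower, beside 30.6% and 29.8% of all genes.

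Of the 12 efflux and removal genes 9 were higher and 3 lower in vehicle tumor, beside the same 29.3% and 30.8%. Lcat, which esterifies cholesterol on lipoproteins, was at 5.06 ± 0.13 (adjusted p = 3.32e-14) and Apoe at 2.10 ± 0.06 (adjusted p = 7.82e-14). Cyp46a1, the enzyme by which neurons turn cholesterol into a form that leaves the brain, was at -4.48 ± 0.08 (adjusted p = 7.36e-16), in the same libraries in which the neuron markers were lower. For MRX-2843 in tumor 3 were higher and 7 lower, beside 30.6% and 29.8% of all genes, with Cyp46a1 at 4.36 ± 0.08 (adjusted p = 1e-15). Of 10 fatty acid synthesis genes 4 were higher and 3 lower in vehicle tumor, a share called near the 60.1% of all genes, with Fasn at 1.04 ± 0.05 (adjusted p = 1.41e-10), Me1 at 1.00 ± 0.07 (adjusted p = 7.39e-09) and Acss2 at -1.23 ± 0.09 (adjusted p = 9.55e-09). For MRX-2843 in tumor 6 of these 10 were higher and 3 lower, beside 30.6% and 29.8% of all genes.

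The genes with the pattern most like the 8 were sought by Pearson's r over the 8 libraries with the mean of the members' log2 CPM, each centred on its own mean, among 11812 other genes. They were Serinc2 (r = 0.96), Lrrn1 (0.95), Fmn1 (0.94), Slc38a2 (0.94) and Nr4a1 (0.94), given as a description over 4 groups of 2 libraries. That mean ran from -0.23 to 0.18 log2 units, and no gene of the other pathway lists was among these 5.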

How the data were processed

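The authors deposited raw counts of reads per gene for 8 libraries of total RNA. The submitters' processing notes name STAR 2.7.7a, featureCounts, Subread, SAMtools, mm10 and hg38, with no role given. The annotation, the strand setting and the treatment of shared reads are not given in the sources used here. Library totals of 51150569 to 112938462 counts give the precision. Group and replicate came from the sample titles, and columns were matched through the column names in the labels.

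The test was edgeR 4.0.16 under R 4.3.3, with TMM, filterByExpr (minimum count 10), 4 group means, 4 residual degrees of freedom, the quasi-likelihood test and Benjamini-Hochberg adjustment over 24356 genes. The SE was derived from the log2 fold change and its F statistic. The script was tested on simulated data. Exon lengths, positions and overlaps came from GENCODE M21 (GRCm38), which held 94% of the gene identifiers without versions. Alternatives were DESeq2 size factors, library totals, the DESeq2 1.42.0 test, a filter of CPM of 1 or more in 2 libraries, no filter, a replicate block, fits of only the groups compared, leaving out mitochondrially encoded or X and Y genes, and leaving out each library. Leaving out both MRX-2843 tumor libraries was chosen after seeing the data.

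The 8 genes and all other lists were chosen with earlier results of these data known. Named are the 8, Srebf2 and Insig1, up to 3 genes of each other pathway list and up to 2 of a marker list with the smallest adjusted p in a comparison, and the 5 genes with the most similar pattern; some genes that this rule names are not reported here. Libraries of a group differed beyond sampling noise (chi-square per degree of freedom 9.23 to 18.8), so none was counted as a copy of another. Plots were drawn with matplotlib 3.10.9.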

Additional observations from a re-analysis of the deposited data

Results flagged for a closer look

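The difference of tumor from naive brain was tested for a change between vehicle and MRX-2843 by the interaction term of the fit, and it was called at an adjusted p under 0.05 for 4 of the 8 enzyme genes and 1 of the 2 related genes reported in full. The interaction was 1.05 ± 0.09 for Hmgcs1, 0.55 ± 0.11 for Fdft1, 0.83 ± 0.12 for Lss and -0.33 ± 0.12 for Cyp51. It was -0.40 ± 0.08 for Srebf2 (adjusted p = 0.000822). For Hmgcs1 and Lss, tumor was lower than naive brain under vehicle and higher under MRX-2843. Over all genes 51.6% had a called interaction, and summed oligodendrocyte markers were at 543 and 564 CPM in vehicle tumor and 14598 and 15052 CPM in MRX-2843 tumor. The part of these markers in these values was not tested.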

How the results depend on the processing

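Of 688 values of the 8 genes over 5 comparisons and all alternatives, 659 kept their direction and their side of the threshold, 16 lost the call, 5 gained it and 8 changed sign. The sign changes were in uncalled values. For MRX-2843 in tumor, Mvd was at -0.062 with library totals, and Fdps ranged from -0.068 to 0.516 over the libraries left out. For tumor within MRX-2843, Mvd was at 0.00050 with DESeq2 size factors, at 0.0107 with library totals and from -0.14 to 0.092 over the libraries left out. For MRX-2843 in naive brain, Mvd ranged from -0.205 to 0.028 and Fdps from -0.912 to 0.0020 over the libraries left out. Insig1, which is not among the 688 values, ranged there from -0.092 to 0.133. The number of the 8 called lower there was 1 to 3 over the libraries left out, with 1 only without MRX-2843 naive library 1. For the interaction, 1 of the 8 was called lower, 2 with library totals, 0 with DESeq2, and 0 to 1 over the libraries left out. Library totals moved the median of all genes by 0.25 for tumor under vehicle, by -0.22 for MRX-2843 in tumor and by -0.22 for the interaction. Libraries with the same replicate number in their titles did not deviate together (r from -0.09 to 0.07 over 12636 genes), which gave no sign of a pairing. The number that opens the column names was not tested. With the replicate block the counts of the 8 called higher and lower were 3 and 3 for tumor under vehicle, 3 and 2 for MRX-2843 in tumor, 4 and 0 for tumor within MRX-2843, 0 and 3 for MRX-2843 in naive brain and 3 and 1 for the interaction, the same counts as without it. A fit that leaves a group with 1 library assumes that it varies like the others. The counts of Fdps, 69 to 131 a library, limit what its values can show.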
